A study of Cucumis sativus with 9 samples.

Results

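The unheated leaves of cucumber (*Cucumis sativus*) seedlings were described from the 3 HT0h libraries, which were taken by their labels from the 9 libraries of a heat series and are the control of that series. HT0h stands for 0 h at 42 °C. The plants were the 'Chinese long' inbred line 9930, whose genome is the cucumber reference. Seeds were imbibed for 12 h, and the seedlings were grown in vermiculite and matrix at 25 °C by day and 18 °C by night, with 16 h of light and 8 h of dark, and were 3 weeks old when their leaves were frozen. The 3 libraries carry no treatment beyond this. They are biological replicates in the study's methods, but the sources used here give neither the leaf position, the hour of harvest nor the number of seedlings in each library. No comparison with heated leaves was made, and no test between groups was possible in 1 group.

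RNA abundance was read as FPKM, fragments scaled to the length of the gene model and to the depth of the library, for 24880 gene models. Of these, 24317 carry identifiers of version 3.0 of the cucumber genome (CsaV3) and 563 have only a number given by the authors. Each FPKM value times the gene's length was a whole multiple of 1 step per library, so that fragments were recovered. The libraries held 19596994, 19109367 and 19040644 fragments on genes in HT0h_1, HT0h_2 and HT0h_3. Each ± below is the SD over these 3 libraries, and an FPKM without a library name is their mean. At this depth 3 fragments in 1 library of a gene of 1 kilobase correspond to between 0.161 and 0.165 FPKM, a floor that covers counting error only. In whole leaves, fewer cells of a type and less RNA per cell cannot be told apart. Protein domains are those of the Pfam database as listed in the deposited gene descriptions, and roles below are read from these domains, with a RefSeq symbol where one is given. The *CsWRKY* names and groups are those of the study.

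A leaf at this stage is mainly a photosynthetic organ. Light is caught by chlorophyll a/b binding proteins around photosystem I and photosystem II, electrons pass between the photosystems through a cytochrome complex and plastocyanin to ferredoxin, and carbon dioxide is fixed by rubisco in the Calvin cycle. Most proteins of this machinery are encoded in the nucleus, while the large subunit of rubisco and the reaction centre cores are encoded in the plastid. The same leaves hold epidermis with its cuticle, phloem and xylem, and cells that still divide.

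In the unheated leaves 16174 genes (65.0%) had a mean of 1 FPKM or more, and 15463 of them reached 1 FPKM in each of the 3 libraries. A mean of 10 FPKM or more was found for 9323 genes, of 100 or more for 1062 genes and of 1000 or more for 65 genes, which held 24.0% of the summed FPKM. The median over genes at 1 FPKM or more was 12.8 FPKM. At the other end, 4401 genes (17.7%) had 0 fragments in all 3 libraries. Another 898 genes had fragments in 1 library only, and 1071 genes had 1 to 3 fragments in total.

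The summed FPKM was concentrated in few genes. The 10 highest genes held 8.63%, 10.05% and 9.10% of it in HT0h_1, HT0h_2 and HT0h_3, and the 100 highest held 27.6%, 29.04% and 27.96%, a mean of 28.2% ± 0.748. Together, 511 genes made up 50% of the summed FPKM and 6563 genes made up 90%. Counted in fragments, which long genes collect more of, the same 100 genes held 20.6% ± 0.756. Of these 100 genes, 84 were also among the 100 highest of each library taken alone, and 27 belonged to the light-harvesting or nuclear photosystem families and 24 to ribosomal proteins.

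**Figure D1:**
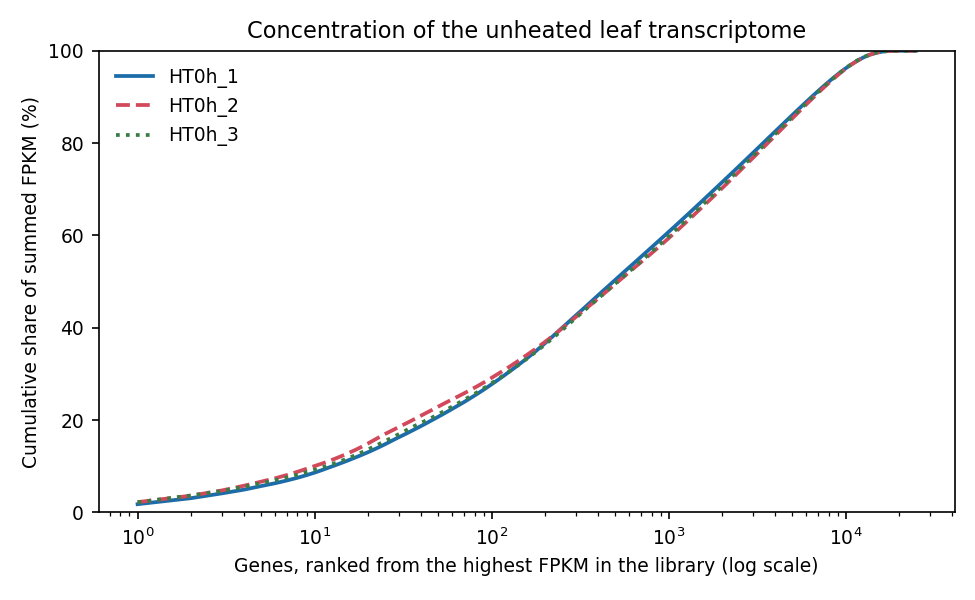
Cumulative share of the summed FPKM in % (vertical axis) against the number of genes ranked from the highest FPKM (horizontal axis, log scale), 1 line for each HT0h library. The 3 lines lie close together, with the 100 highest genes by mean at 28.2% and 50% of the mean FPKM reached with the first 511 genes.

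The most abundant transcript was that of CsaV3_5G034360, the only gene described as the small subunit of rubisco. It lies on chromosome 5 from 27339882 to 27341598 in the coordinates of the deposited gene models, over the RefSeq gene RBCS. It stood at 12904 FPKM in HT0h_1, 15175 in HT0h_2 and 15395 in HT0h_3, a mean of 14491 ± 1379. This gene alone held 2.08% ± 0.249 of the summed FPKM and was lowest in HT0h_1.

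The 20 genes of the chlorophyll a/b binding family, whose proteins hold the antenna chlorophyll, were all expressed, between 33.6 and 9711 FPKM with a median of 2832. Their sum was 57580 FPKM in HT0h_1, 64751 in HT0h_2 and 59111 in HT0h_3, which was 8.66% ± 0.786 of the summed FPKM and 6.93% ± 0.563 of the fragments. No other Pfam family held as much. Of the 30 highest genes of the leaf, 13 were of this family.

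Within the antenna family the levels differed widely. CsaV3_6G051530 was highest, at 9360, 9539 and 10235 FPKM. CsaV3_6G013800 followed with 7574, 7740 and 6947 FPKM, and CsaV3_5G039350 with 5847, 6984 and 6088 FPKM. The highest gene did not overlap with the second, nor the second with CsaV3_6G051520, which had 5597, 5981 and 5701 FPKM. CsaV3_5G039350 overlapped in its library values with both CsaV3_6G013800 and CsaV3_6G051520, so its place between them is not resolved. CsaV3_6G051520 and CsaV3_6G051530 are neighbours on chromosome 6, from 29983572 to 29985221 and from 29986415 to 29987212, on opposite strands and 1193 bp apart. The sources used here do not say how fragments that match both of 2 similar genes were counted, so the split between such neighbours is uncertain.

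Other antenna genes among the 30 highest were CsaV3_1G043710 (4662 FPKM ± 286), CsaV3_3G031580 (3904 ± 799.8), CsaV3_1G032510 (3288 ± 159), CsaV3_5G030270 (3169.7 ± 400.1) and CsaV3_7G002620 (3117 ± 149.6). CsaV3_3G005950, CsaV3_4G026100, CsaV3_1G002410 and CsaV3_5G025740 lay between 2277 and 2903 FPKM. The first 3 of these overlapped in their library values, so their order is not resolved. CsaV3_5G025740 overlapped with CsaV3_4G026100 and CsaV3_1G002410 as well, but lay below all values of CsaV3_3G005950. At the low end stood 5 genes under 200 FPKM, the lowest of them CsaV3_1G005600 with 37.5, 34.7 and 28.7 FPKM.

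Nuclear subunits of photosystem II summed to 18077 FPKM ± 796 over 22 genes, 20 of them at 1 FPKM or more. CsaV3_1G040810 encodes the small subunit PsbX and had 4099, 4022 and 3715 FPKM. CsaV3_2G004030 encodes the small subunit PsbW and had 3883, 3174 and 3040 FPKM. The second PsbX gene, CsaV3_2G001270, had 0 fragments, so that 1 of 2 copies supplied the whole PsbX signal.

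The oxygen-evolving side of photosystem II is held by PsbO, PsbP, PsbQ and PsbR. The manganese-stabilising protein (PsbO) gene CsaV3_6G042680 stood at 2663 FPKM ± 187 and the PsbR gene CsaV3_4G007600 at 2427 ± 226. Of 11 PsbP-domain genes, CsaV3_4G007520 held 71.9% of the family's FPKM (1690.5, 1763 and 1780.5), while the other 10 lay between 1.01 and 135 FPKM. Such genes outside the rule for naming were chosen after their values were seen.

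All 8 genes of nuclear photosystem I subunits were expressed, with a sum of 11010.0 FPKM ± 1210.3. CsaV3_6G041600 encodes PsaN, a lumenal subunit, and was highest with 2725, 3628 and 3116 FPKM. CsaV3_1G046680 encodes subunit III (PsaF), which faces plastocyanin, and had 1907, 2190.0 and 2051 FPKM. HT0h_2 was highest and HT0h_1 lowest for both genes.

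Electrons leave photosystem I through ferredoxin. CsaV3_3G019220 has a ferredoxin-type 2Fe-2S domain and held 77.4% of that family, with 2756, 3206 and 3322 FPKM. Its neighbour CsaV3_3G019210 has the same domain and stood at 340.2 FPKM ± 22.8, close to CsaV3_3G013320 at 342 ± 33.3. Plastocyanin, which feeds photosystem I, was highest in CsaV3_3G046150 with 1638, 1677 and 1858 FPKM. The list of 13 genes with carrier domains summed to 6444 FPKM ± 335. It includes aldehyde oxidase and xanthine dehydrogenase genes that share the 2Fe-2S domain, the highest of them CsaV3_1G042760 (9.72 FPKM ± 1.66).

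Carbon fixation genes summed to 24238 FPKM ± 1660.5 over 36 genes, every one of them above 1 FPKM, and the rubisco small subunit held 59.8% of this sum. Next came a fructose-bisphosphate aldolase, CsaV3_2G015280, at 1758 FPKM ± 189, and a glyceraldehyde 3-phosphate dehydrogenase, CsaV3_4G037480, at 1634 ± 88.1. The dehydrogenase family has 7 members, among them CsaV3_3G020110 at 773 FPKM ± 21.0 and CsaV3_1G009410 at 479 ± 87.5. Members of these families also serve glycolysis, and the descriptions do not separate these roles. The list also takes in the joint phosphoribulokinase and uridine kinase family. Some of its members carry a uracil phosphoribosyltransferase domain, such as CsaV3_7G021480 (21.4 FPKM ± 4.40) and CsaV3_3G020520 (13.6 ± 1.06). Not all 36 genes therefore need serve carbon fixation.

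Carbonic anhydrase, which interconverts carbon dioxide and bicarbonate, was nearly a single-gene family in the leaf. CsaV3_3G042440 had 1822, 2142 and 2139.9 FPKM and held 94.5% of the 4 genes' sum. Photorespiration, which recovers carbon after rubisco binds oxygen, summed to 3500.5 FPKM ± 218 over 19 genes. Its highest gene was the catalase CsaV3_6G031490, which removes hydrogen peroxide, with 1286, 1335 and 987 FPKM.

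**Figure D2:**
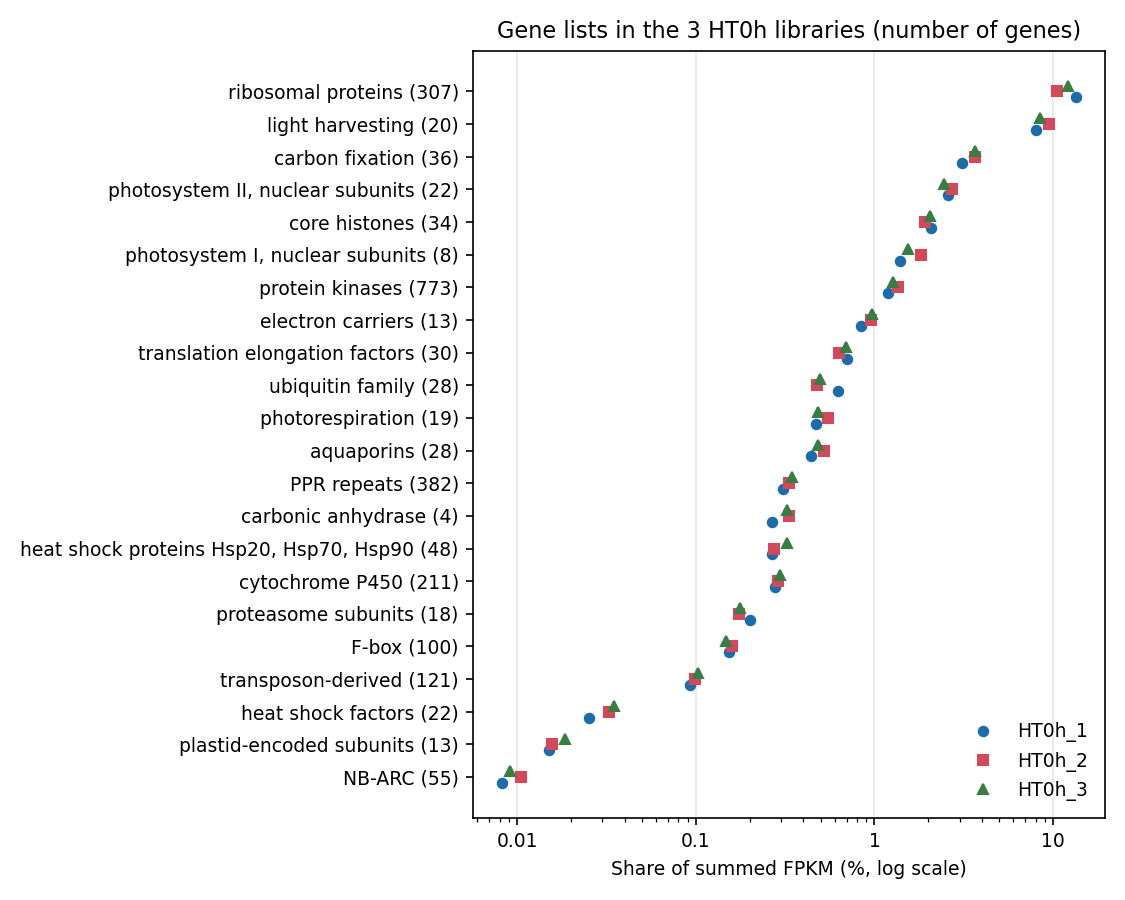
Share of the summed FPKM in % (horizontal axis, log scale) of 22 gene lists (vertical axis, with the number of genes), 1 symbol for each HT0h library. Ribosomal proteins (mean 12.0%) and light harvesting (mean 8.66%) stand highest, and NB-ARC genes (mean 0.00930%) lowest.

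Gene models with domains of plastid-encoded proteins stood far below the nuclear genes of the same complexes. Some of these models, such as CsaV3_1G025480, CsaV3_4G026390 and CsaV3_5G030320, lie on nuclear chromosomes 1, 4 and 5. Others are short pieces on an unplaced scaffold, such as rubisco large chain models of 378 and 471 bp. Their values therefore need not be those of the plastid genes. The 13 models summed to 109, 107 and 130.2 FPKM, which was 0.0165% ± 0.00189 of the summed FPKM. CsaV3_UNG203690, a fragment of the rubisco large chain on an unplaced scaffold, was the highest with 18.7, 26.6 and 25.2 FPKM, where the small subunit had 12904 or more in each library. Of these models 4 were under 1 FPKM, 1 of them at 0 fragments, and CsaV3_5G030320 (22.6 FPKM ± 3.55) also carries an ELMO domain. The sources used here do not say whether the RNA was selected by its poly(A) tail, which plastid transcripts mostly lack.

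The translation machinery held a larger share than the antenna family. The 307 genes described as ribosomal proteins, of the cytosol and of organelles, summed to 96959 FPKM in HT0h_1, 71856 in HT0h_2 and 84022 in HT0h_3, a mean of 12.0% ± 1.44 of the summed FPKM and 8.29% ± 1.04 of the fragments. Expression at 1 FPKM or more was found for 280 of them, and 12 had 0 fragments. The 3 libraries were separated in this list by more than in the antenna family.

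The highest ribosomal gene was CsaV3_1G003660 (protein S28e) with 2279, 1328 and 1570.3 FPKM. In the L7Ae family CsaV3_7G031930 led with 1297 FPKM ± 153, ahead of CsaV3_1G042100 (814 ± 199) and CsaV3_3G026840 (493 ± 21.2). In the acidic ribosomal protein family, which forms the stalk of the large subunit, CsaV3_3G007330 led with 1296, 874 and 1106 FPKM. CsaV3_5G008980 (706 FPKM ± 114) and CsaV3_5G035580 (583 ± 196) followed. HT0h_1 was the highest library for each of these 7 genes, and HT0h_2 the lowest for all but CsaV3_3G026840, in which HT0h_2 and HT0h_3 were level.

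Among translation elongation factors, 29 of 30 genes were at 1 FPKM or more, led by CsaV3_2G011610 with 1468, 1228 and 1334 FPKM, which lies over the RefSeq gene EF1. Genes with the RNA recognition motif, a domain of RNA-binding proteins, numbered 178 and held 1.44% ± 0.0277 of the summed FPKM. Their highest members were CsaV3_3G035830 (759 FPKM ± 108), CsaV3_7G008460 with a poly(A)-binding domain (566 ± 31.5) and CsaV3_1G000940 (446 ± 75.9).

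Histones, which package DNA, were abundant. The 34 genes with a core histone or CENP-T histone fold domain summed to 14110 FPKM ± 998, and 29 were at 1 FPKM or more. CsaV3_6G002190, with the CENP-T fold, was highest with 2504, 2097 and 2426 FPKM. CsaV3_6G017120 (822 FPKM ± 115) and its neighbour in name CsaV3_6G017110 (600.2 ± 112) carry the same fold. Among histones H2A, CsaV3_2G006590 had 1358, 1287 and 1286 FPKM, CsaV3_7G028400 had 1001.2 ± 32.3 and CsaV3_1G033640 had 750.4 ± 34.5. CsaV3_UNG131020, a core histone on an unplaced scaffold, had 998 FPKM (1120.2, 831 and 1044.2).

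Protein turnover was read from ubiquitin and the proteasome. The 28 ubiquitin-family genes summed to 3736 FPKM ± 685, and their highest members were fusions with ribosomal proteins, CsaV3_4G008470 with L40e (1573, 1025 and 1194 FPKM) and CsaV3_5G031430 with S27a (1438, 926 and 1061 FPKM). CsaV3_6G049240, without a ribosomal domain, had 721 FPKM ± 134. The 18 proteasome genes were lower, with a sum of 1294 FPKM ± 144 and a highest gene, CsaV3_6G032330, of 133 ± 14.8.

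In the AAA family of ATPases, CsaV3_5G008270 held 48.4% of the sum of 93 genes with 2409, 2893 and 2398 FPKM. CsaV3_1G000100 (260.2 FPKM ± 15.7) and CsaV3_1G033930 (179.9 ± 9.52), which carry Clp protease and chaperone domains, were next. The second PsbW gene, CsaV3_7G027520, had 1251 FPKM ± 76.3.

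Genes of the leaf surface and of water transport also stood high. CsaV3_3G033150, of the protease inhibitor, seed storage and lipid transfer protein family, had 3323, 3079 and 4116 FPKM and ranked 11 in the leaf. It held 95.2% of the FPKM of its family of 5 genes, 2 of which had 0 fragments. CsaV3_1G026750, described as a hydrophobic seed protein and lying over the RefSeq gene EXTL, had 2686, 3431 and 3064 FPKM, while 7 of the 18 genes of that family had 0 fragments. Both families are named for seed proteins and also hold cell wall and surface proteins of leaves.

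The aquaporins, channels for water in plasma membrane and tonoplast, numbered 28. Of these, 20 (71.4%) were at 1 FPKM or more, near the 65.0% of all genes. CsaV3_6G040100 held 40.6% of their sum with 1234, 1487 and 1399.5 FPKM. The list summed to 3386 FPKM ± 189.

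Genes with no Pfam description were a large class of short models. There were 9448 such genes (37.97% of all), with a median length of 641 bp against 1785 bp for genes with a description, and 4841 of them were at 1 FPKM or more. Their share was 20.3%, 19.5% and 19.4%, a mean of 19.7% ± 0.534. Highest were CsaV3_1G015100 on chromosome 1 (4344, 4859 and 4083 FPKM) and CsaV3_7G025650 on chromosome 7 (4017, 4466 and 3731 FPKM), which ranked 7 and 8 in the leaf. CsaV3_2G001630 (3438, 1956 and 2428 FPKM) and CsaV3_4G000420 (3903, 1690 and 2203 FPKM) are 279 and 171 bp long, and both were highest in HT0h_1.

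Of the gene models without a CsaV3 identifier, the highest carries the very short ribosomal protein L41, lies on chromosome 1 from 22319087 to 22319705 and had 2118, 914 and 1219 FPKM. A model with a ribosomal protein S13/S18 domain on chromosome 6 from 4253757 to 4255652 had 598, 423 and 506 FPKM. A second L41 model on chromosome 4 from 22362288 to 22363601 had 664, 291 and 377 FPKM, with the same order of libraries as the first. The other 2 of the 5 highest carry a triose-phosphate transporter domain (419 FPKM ± 10.4, chromosome 6) and the NAC domain of the nascent polypeptide-associated complex (273 FPKM ± 20.4, chromosome 1).

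The largest families of the table were read beside all genes, which had a median of 4.77 FPKM and 65.0% at 1 FPKM or more. Protein kinases, with serine/threonine or tyrosine kinase domains, numbered 773, had a median of 5.59 FPKM and held 1.27% ± 0.0800 of the summed FPKM. The highest were CsaV3_1G009040 (181 FPKM ± 16.1) and 2 kinases with the NAF domain that binds calcium sensors, CsaV3_1G028820 (170.3 ± 17.6) and CsaV3_2G003670 (150.3 ± 7.32). Kinases made 553 of 773 genes at 1 FPKM or more.

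Pentatricopeptide repeat genes, whose proteins act on organelle RNA, numbered 382, of which 303 were at 1 FPKM or more with a median of 3.21 FPKM. CsaV3_1G015490 was highest with 92.8, 92.4 and 128 FPKM. F-box genes, which choose targets for ubiquitin ligases, reached 1 FPKM in 71 of 100 cases, beside 65.0% of all genes. They were led by CsaV3_3G019660 (97.3 FPKM ± 6.00).

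Cytochrome P450 genes, oxidases of specialised metabolism and hormones, had a median below the 4.77 FPKM of all genes. Only 85 of 211 were at 1 FPKM or more, 42 had 0 fragments and the median was 0.37 FPKM, yet CsaV3_1G007770 stood at 357, 354 and 339 FPKM. NB-ARC genes, intracellular immune receptors, were low throughout, with 20 of 55 at 1 FPKM or more, none at 10 FPKM, and a highest level of 6.43 FPKM ± 0.658 for CsaV3_2G004940. Among 121 genes with transposon-derived domains, 76 were at 1 FPKM or more, beside 65.0% of all genes. The highest, CsaV3_6G022400 (75.1 FPKM), also carries a metabolic oxidoreductase domain.

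Chaperones of the heat shock families were present before heating. Of 48 genes with Hsp20, Hsp70 or Hsp90 domains, 29 (60.4%) were at 1 FPKM or more, with a median of 4.91 FPKM. Over all genes the share was 65.0% and the median 4.77 FPKM. The highest was the Hsp70 gene CsaV3_2G011210 with 462, 375 and 569 FPKM. Of 22 heat shock factor genes, which encode transcription factors for chaperone genes, 16 were at 1 FPKM or more, and CsaV3_7G027860 was highest with 33.5, 73.3 and 68.1 FPKM. HT0h_1 stood apart for this factor, below both other libraries.

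The transcription factor column of the files names protein families of all kinds, with 610 values for 7442 genes, so 31 values that denote transcription factors were kept. They covered 1025 genes, of which 630 (61.5%) were at 1 FPKM or more, beside 65.0% of all genes. Their sum was 1.81%, 1.96% and 1.86% of the summed FPKM in the 3 libraries. The median factor gene had 2.81 FPKM, 16 genes reached 100 FPKM, and 143 had 0 fragments.

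The highest factor gene was CsaV3_3G000290 with an HMG box, a domain that bends DNA in chromatin. It had 1789.9, 1806 and 1791 FPKM, held 88.7% of its family's sum, and was among the genes most alike in the 3 libraries. Next came CsaV3_1G031230 (271, 299.99 and 206 FPKM), which joins a CCT motif to a B-box zinc finger as the CONSTANS-like proteins of Arabidopsis do. CsaV3_7G004070 (242 FPKM ± 10.1) carries a Myb-like domain beside a thylakoid formation domain, so its role as a factor is unsure.

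B-box genes CsaV3_6G006790 (202 FPKM ± 18.5) and CsaV3_6G046900 (180.5 ± 25.6) and the YABBY gene CsaV3_5G003950 (194.5, 193 and 188 FPKM) were also among the 10 highest. YABBY proteins give the lower leaf face its identity in Arabidopsis. So were CsaV3_6G008360 (Myb-like, 189.5 FPKM ± 17.0) and CsaV3_6G001900 (helix-loop-helix, 281, 108 and 146 FPKM), the latter with HT0h_1 far above the others. The NAC gene CsaV3_1G031860 (154 FPKM ± 35.6) and CsaV3_4G024430 (130.3 ± 7.40), with the receiver domain and CCT motif of the clock's pseudo-response regulators, closed the 10.

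Among families of 10 or more genes, medians ranged from 23.2 FPKM for CCT to 0.138 FPKM for SRF-TF, the MADS-box factors. Beside 65.0% of all genes and 61.5% of factor genes, all 15 genes of the auxin response factor family were at 1 FPKM or more, as were 19 of 21 FAR1 genes. By contrast 64 of 139 AP2 genes, 36 of 77 NAC genes and 14 of 35 SRF-TF genes were. The highest SRF-TF gene, CsaV3_6G045010, nevertheless had 123, 134 and 124 FPKM and held 55.8% of its family.

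The highest genes of the other families gave the ceiling of each. The homeobox-leucine zipper gene CsaV3_6G045240 had 129 FPKM ± 4.56, the TCP gene CsaV3_4G008400 119 ± 19.2, the AP2 gene CsaV3_1G022920 102 ± 3.53, the GATA gene CsaV3_3G015000 89.0 ± 6.999 and the CCCH zinc finger CsaV3_6G040400 84.2 ± 2.52. Lower ceilings were those of CsaV3_5G015710 (auxin response factor, 70.4 FPKM ± 4.01), CsaV3_2G030060 (zinc finger homeodomain, 49.8 ± 3.04), CsaV3_1G003320 (Dof, 42.6 ± 5.27), CsaV3_5G023010 (B3, 34.8 ± 6.66) and CsaV3_3G031570 (SBP, 34.0 ± 1.42). The lowest means were those of CsaV3_2G026630 (bZIP, 31.6 FPKM ± 0.0737), CsaV3_5G028350 (GRAS, 28.8 ± 2.14), CsaV3_4G034570 (WRKY, 27.4 ± 6.65) and CsaV3_4G007310 (FAR1, 19.1 ± 2.29). The homeobox and TCP genes, the TCP and AP2 genes, the GATA and CCCH genes, the B3 and SBP genes and the GRAS and WRKY genes differed by less than the larger SD of each pair. So did the B3 gene from the bZIP and GRAS genes, and the WRKY gene from the SBP and bZIP genes.

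**Figure D3:**
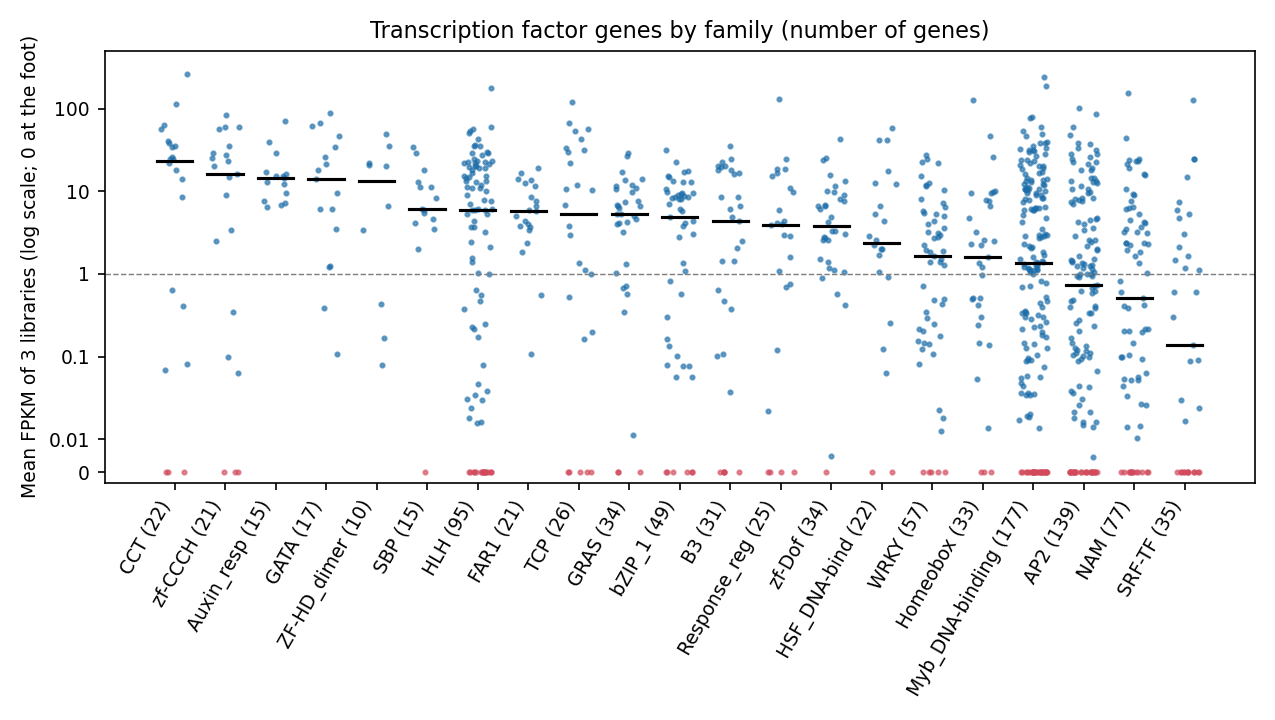
Mean FPKM of the 3 HT0h libraries (vertical axis, log scale) for each gene of 21 transcription factor families with 10 or more genes (horizontal axis, number of genes in brackets). Points are genes, bars the family median, red points at the foot genes with 0 fragments, and the dashed line 1 FPKM. Medians run from 23.2 FPKM in CCT to 0.138 FPKM in SRF-TF.

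The 61 *CsWRKY* genes, the family for which the series was made, were a minor part of the leaf before heating. WRKY proteins bind W-box elements and act in defence, senescence and stress. Together they summed to 269.7 FPKM ± 0.955, or 0.0386% of the summed FPKM, with a median of 1.67 FPKM. At 1 FPKM or more stood 35 genes, at 10 or more 10 genes, and 5 genes had 0 fragments. The shares over all genes were 65.0%, 37.5% and 17.7%.

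*CsWRKY37* was highest with 20.4, 33.6 and 28.2 FPKM, followed by *CsWRKY55* (21.9, 25.1 and 25.7 FPKM) and *CsWRKY4* (23.4, 22.1 and 22.1 FPKM). *CsWRKY31* (22.2, 23.2 and 19.7 FPKM) and *CsWRKY17* (17.6, 15.1 and 16.0 FPKM) completed the 5 highest. The first 4 overlapped in their library values, so their order is not resolved, while *CsWRKY17* lay below all values of the others. These 5 genes held 41.6% of the family's FPKM.

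By the structural groups of the study, all 7 members of group IId, which carry a calmodulin-binding region in Arabidopsis, were at 1 FPKM or more with a median of 10.4 FPKM. Group I, with 2 WRKY domains in all members but *CsWRKY42*, had 9 of 11 members at that level. Its sum was the largest, 108 FPKM ± 2.03. Group IIb had 1 of 5 members at 1 FPKM or more and a highest level of 1.38 FPKM, and group IIc had 9 of 20 with a median of 0.597 FPKM. Group III had 4 of 7, of which *CsWRKY27* was the highest, with 14.9, 4.15 and 18.4 FPKM and HT0h_2 far below the others. Group IIe had 3 of 8 and group IIa 2 of 3.

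*CsWRKY32*, *CsWRKY34*, *CsWRKY44*, *CsWRKY45* and *CsWRKY54* had 0 fragments in all 3 libraries. A count of 0 allows up to 3 fragments over the group, which for these genes corresponds to between 0.0194 and 0.0856 FPKM. A further 2 genes, *CsWRKY39* and *CsWRKY40*, had 1 fragment each.

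Genes with 0 fragments were short. Their median length was 429 bp, against 1325 bp for genes above 0 and under 1 FPKM, 1906 bp at 1 to under 10 FPKM and 1777 bp at 10 FPKM or more. Of the genes of 300 bp or less, 55.9% had 0 fragments, and of those over 2000 bp, 2.92%. The floor of 3 fragments over the group was 0.126 FPKM for the median gene at 0 and at most 0.711 FPKM. By counting alone, 1 FPKM thus lay above the floor for all of them. The shortest gene at 0 was 76 bp long. The floor covers neither the recovery of fragments from so short a gene nor the counting of fragments shared by similar genes, which is not known.

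Absence of a Pfam description went with silence, and the gap varied at equal length. With a description 10.3% of genes had 0 fragments, and without one 29.8%. In genes longer than 300 and up to 500 bp the shares were 37.8% with and 45.3% without a description, and in those up to 1000 bp 26.1% and 28.4%. The direction turned in longer genes, with 10.3% and 7.60% up to 2000 bp and 2.99% and 2.72% beyond.

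The RefSeq annotation, a separate set of gene models for this genome, covered fewer of the silent models. On the 7 chromosomes, a RefSeq gene overlapped at least 50% of the length of 52.5% of the models with 0 fragments, 80.4% of those above 0 and under 1 FPKM, 90.7% at 1 to under 10 FPKM and 95.2% at 10 FPKM or more. RefSeq genes span 45.4% of the length of these chromosomes.

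Silent genes were unevenly placed. Between 15.5% (chromosome 3) and 18.9% (chromosome 1) of a chromosome's genes had 0 fragments, against 35.6% of the 883 genes on unplaced scaffolds. In windows of 2 Mb with at least 50 genes the share ran from 6.06% to 45.9%, and it was 24.8% in the third of windows with the fewest genes and 13.2% in the third with the most. On chromosome 7 the window from 6 to 8 Mb had 51 of 111 genes at 0.

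Neighbours were often silent together. After a gene at 0, the next gene along the chromosome was at 0 in 30.8% of cases, and after any other gene in 14.2%. The longest run held 26 genes on chromosome 6 from 23983539 to 24174377, with 8 aspartic acid proteinase inhibitor genes and 17 genes without a description. A run of 14 genes on chromosome 5 from 29718889 to 29782217 held 13 genes with matrixin and peptidoglycan binding domains, a form of extracellular metalloprotease. Another run of 10 genes on chromosome 1 consisted of family 17 glycosyl hydrolases alone. Genes of a run that share a domain are related, so they are not independent. How fragments shared by such genes were counted is not known, so their counts of 0 are uncertain.

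Of 446 Pfam families with 10 or more genes, 161 had no gene at 0 fragments, 47 had every gene at 1 FPKM or more, and 12 had over 50% of their genes at 0. Families fully in use included DEAD box helicases (71 genes, median 14.7 FPKM), cyclophilins (23 genes, median 24.4 FPKM), chaperonins (19 genes, median 62.3 FPKM) and tubulins (16 genes, median 82.4 FPKM).

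The silent end was made up of other families, read beside 17.7% of all genes at 0 fragments. Matrixins had 16 of 20 genes at 0, the S1 proteins named for self-incompatibility of pollen in poppy 23 of 35, family 28 glycosyl hydrolases, which include the polygalacturonases of pollen and fruit, 36 of 57, and aspartic acid proteinase inhibitors 19 of 31. Terpene synthases, which make volatile and defence terpenes, had 13 of 24 at 0 and peroxidases of the cell wall 32 of 79. Even so, single members stood high, among them the peroxidase CsaV3_1G033510 with 507 FPKM and the Bet v I family gene CsaV3_5G031770 with 914 FPKM in a family with 19 of 46 genes at 0. These families were picked by their share of silent genes, so no weight attaches to their ranking.

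**Figure D4:**
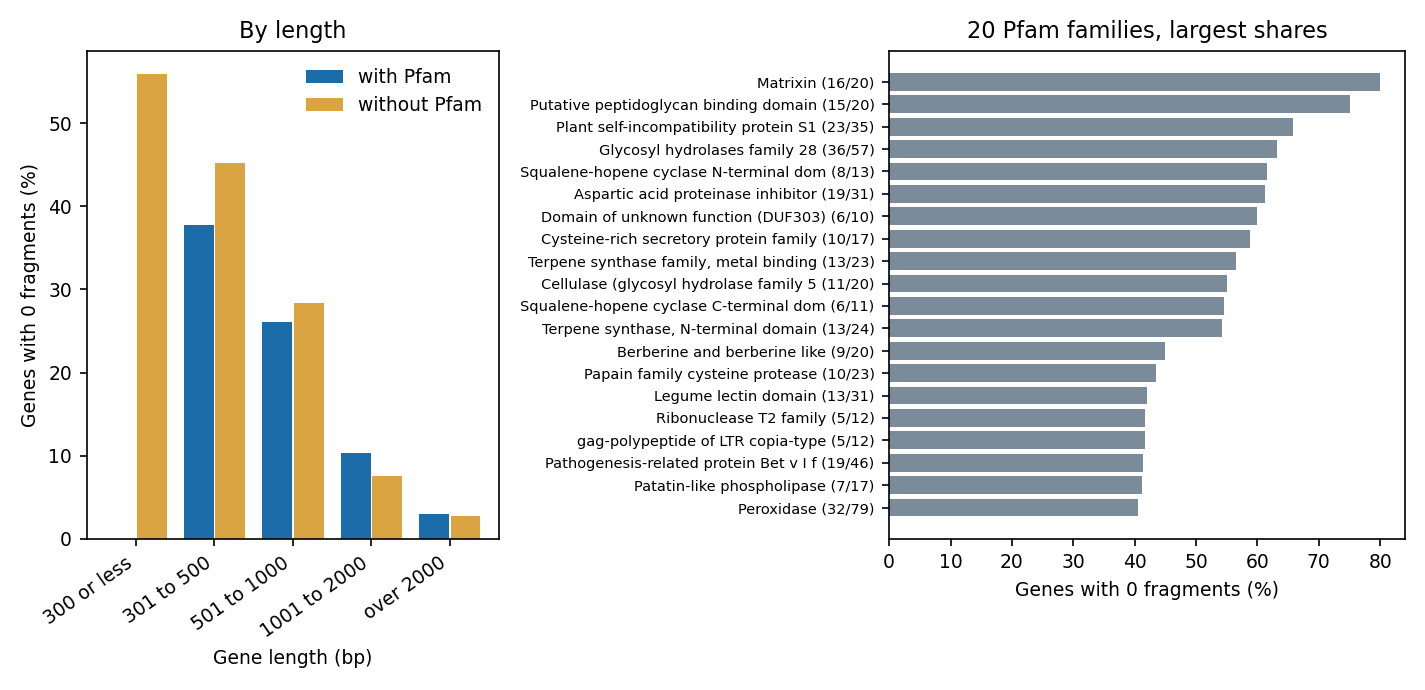
Left, share of genes with 0 fragments in the 3 HT0h libraries in % (vertical axis) by gene length in bp, for genes with and without a Pfam description (the shortest class holds only 5 described genes and no bar for them). Right, the same share in % (horizontal axis) for the 20 Pfam families of 10 or more genes with the largest shares, with the silent and total genes in brackets, from 80.0% for matrixins downward.

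Marker families of leaf tissues and of other organs were read as lists, beside 65.0% of all genes at 1 FPKM or more. Mesophyll markers, the antenna, rubisco small subunit and photosystem families, held 14.0% ± 1.22 of the summed FPKM, with 33 of 34 genes at 1 FPKM or more. Lipid transfer, wax and GDSL genes of epidermis and cuticle had 67 of 111 genes (60.4%) at that level, a share under that of all genes. They summed to between 6549.6 and 7129 FPKM, of which the single gene CsaV3_3G033150 had 3506 FPKM ± 542. Markers of dividing cells, cyclins, histones and kinesins, had 96 of 109, and the cyclin families alone had 30 of 31.

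Vascular markers had lower sums than those of mesophyll and epidermis. Phloem genes had 33 of 63 (52.4%) at 1 FPKM or more and summed to between 557 and 705 FPKM, led by CsaV3_7G007130 of the phloem filament protein family (133, 176 and 91.0 FPKM). Genes of secondary walls had 51 of 81 (62.96%) and a sum between 1548 and 1717 FPKM, led by the fasciclin gene CsaV3_6G006100 (189.8 FPKM ± 32.5).

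For seeds, 16 of 57 marker genes (28.1%) were at 1 FPKM or more and 21 had 0 fragments, with a sum of 1233 FPKM ± 219. This sum depends on where families named for seeds were placed. The protease inhibitor, seed storage and lipid transfer family (3683 FPKM ± 543) was counted with epidermis and cuticle. The hydrophobic seed protein family (3625 FPKM ± 410) was in no marker list. With either family the seed sum would be far larger. Of the oleosins, which coat seed oil bodies, 2 of 7 were at 1 FPKM or more with a family sum between 9.06 and 12.6 FPKM, and the small hydrophilic seed protein CsaV3_4G026360 was at 0. The list's sum was carried by the cupin CsaV3_7G034490 with 673, 1115 and 668 FPKM, a domain also found in leaf proteins. Pollen and flower genes reached 1 FPKM in 46 of 101 cases (45.5%) with 31 at 0 and a sum of 2056 FPKM ± 244, led by CsaV3_7G000820 (690.3 FPKM ± 198), which carries a cyclophilin domain beside the pollen Ole e I domain. Root genes reached it in 36 of 81 cases (44.4%) with 20 at 0 and a sum of 672 FPKM ± 35.5, led by the dirigent gene CsaV3_6G006930 (163 FPKM ± 33.3). The lists of other organs thus had smaller shares of expressed genes than the leaf lists, but the sum of pollen and flower genes was above those of phloem and secondary walls, and the mean sums of seed and root genes were above that of phloem genes (607 FPKM ± 84.7).

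The 3 libraries agreed closely over all genes. Pearson's r of log2(FPKM + 1) over 24880 genes was 0.990 for HT0h_1 with HT0h_2, 0.989 for HT0h_1 with HT0h_3 and 0.989 for HT0h_2 with HT0h_3, and Spearman's rho was between 0.984 and 0.985. Genes are not independent replicates, and such values are given as a description. The median gene at 1 FPKM or more differed by 1.13-fold to 1.15-fold between 2 libraries. Between each pair of libraries the chi-square of the fragments divided by its degrees of freedom was 24.0, 24.5 and 19.5. Repeated draws of fragments from 1 library, which differ by counting noise only, would give about 1. All 3 were therefore kept as separate samples.

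The spread depended on the level. The median coefficient of variation over the 3 libraries was 23.8% at 1 to under 3 FPKM, where counting error alone gives 13.7%, and 9.35% at 10 to under 30 FPKM, where it gives 4.03%. At 1000 FPKM or more the median was 9.66% and counting error 0.511%. Between 300 and 1000 FPKM the median was 13.2% and counting error 1.02%, so the spread of abundant genes was mostly not counting error.

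Of the 16174 genes at 1 FPKM or more, 1374 (8.495%) differed by more than 2-fold between the highest and the lowest library, and 563 by more than 3-fold. At 10 FPKM or more it was 273 of 9323 genes (2.93%), and 34 differed by more than 5-fold. Among these 273 genes HT0h_1 was highest in 127, HT0h_2 in 57 and HT0h_3 in 89, and HT0h_3 was lowest in 118. HT0h_3 alone stood more than 2-fold above both other libraries in 38 genes and below both in 42, against 33 and 13 for HT0h_1 and 9 and 17 for HT0h_2.

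**Figure D5:**
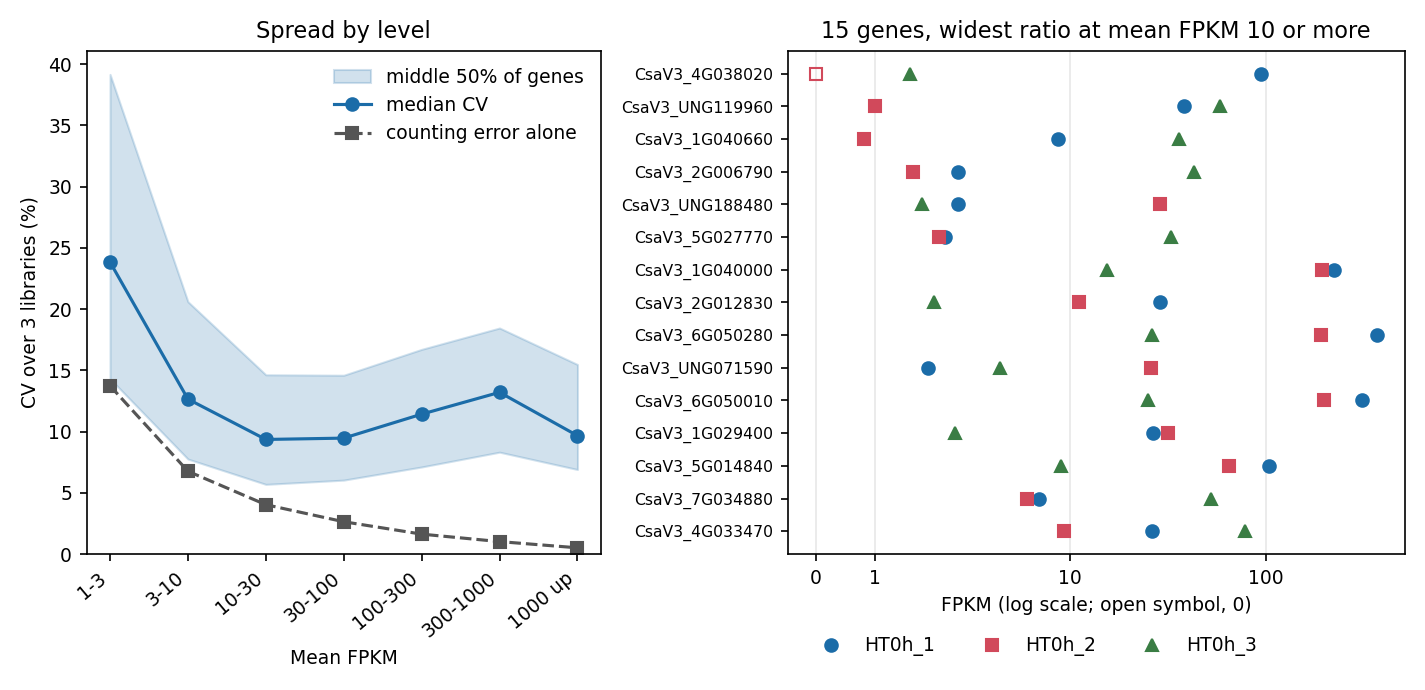
Left, coefficient of variation (CV, SD over mean) of the 3 HT0h libraries in % by mean FPKM, as the median and the middle 50% of genes, with the CV that counting error alone gives. Right, FPKM in each library (horizontal axis, log scale) of the 15 genes with the widest ratio of highest to lowest library at a mean of 10 FPKM or more. In CsaV3_2G006790, CsaV3_5G027770 and CsaV3_7G034880 HT0h_3 lies above the others, and in CsaV3_1G040000, CsaV3_6G050280 and CsaV3_6G050010 below them.

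The widest ratios at 10 FPKM or more fell into 2 main patterns. In the first, HT0h_3 was high. CsaV3_2G006790, a phospholipase D, which cleaves membrane phospholipids, had 2.65, 1.57 and 43.1 FPKM, and CsaV3_5G027770, a calcineurin-like phosphoesterase, had 2.28, 2.13 and 32.7 FPKM. CsaV3_7G034880, a putative phosphatase, had 6.96, 6.00 and 52.7 FPKM. In each of these genes HT0h_1 and HT0h_2 lay close together.

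The AP2 factor gene CsaV3_4G033470 (26.1, 9.34 and 78.2 FPKM) and CsaV3_1G040660 (8.68, 0.886 and 35.8 FPKM), with a transposase-derived DDE endonuclease domain, were also highest in HT0h_3, but with HT0h_1 between the others. Some other genes with roles around phosphate, chosen after their values were seen, had the pattern as well. The SPX-domain gene CsaV3_1G030190, of a family that senses phosphate status in Arabidopsis and rice, had 22.8, 23.1 and 117 FPKM, and CsaV3_2G002890 of that family had 14.2, 18.1 and 67.5 FPKM. CsaV3_2G003280, an enzyme for the galactolipid MGDG, had 7.34, 6.38 and 46.2 FPKM. By family, HT0h_3 was highest in 3 of 8 expressed SPX genes, 2 of 2 MGDG synthase genes, 3 of 5 glycerophosphoryl diester phosphodiesterases, 7 of 11 genes with the purple acid phosphatase N-terminal domain and 1 of 3 of the phosphoesterase family, beside 33.7% of all genes at 1 FPKM or more. The SPX and phosphoesterase counts were near the share of all genes, and in the SPX family HT0h_2 was highest in 4 genes. Differences over 2-fold were few. They were found in 3 SPX genes, 1 MGDG synthase gene, 2 of the phosphodiesterases, 1 purple acid phosphatase gene and 0 of the phosphoesterase family.

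In the second pattern HT0h_3 was low. CsaV3_1G040000, a myo-inositol oxygenase, had 223, 193 and 15.4 FPKM. CsaV3_6G050280, a dormancy and auxin associated protein, had 369, 192 and 26.0 FPKM, and CsaV3_6G050010, an aluminium-induced protein, had 312, 198 and 24.9 FPKM. CsaV3_1G029400, a transporter of the EamA family, had 26.6, 31.5 and 2.58 FPKM, and CsaV3_5G014840, of the Bet v I family of pathogenesis-related proteins, had 104, 64.8 and 8.94 FPKM.

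Relatives of these genes, chosen after their values were seen, followed. All 4 expressed dormancy and auxin associated genes were highest in HT0h_1 and lowest in HT0h_3, and of 9 expressed lipoxygenases, which oxidise fatty acids on the way to jasmonate, 7 were highest in HT0h_1 and 6 lowest in HT0h_3. Of 14 expressed Bet v I genes, 8 were lowest in HT0h_3, and of 25 expressed auxin-responsive SAUR genes, 14. Over all genes at 1 FPKM or more, 31.1% were lowest in HT0h_3.

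The other genes of the 15 widest rested on fewer fragments or on neither pattern. CsaV3_4G038020 had 94.1, 0 and 1.51 FPKM, CsaV3_UNG119960 38.2, 1.00 and 57.9, CsaV3_UNG188480 2.68, 28.9 and 1.75, CsaV3_UNG071590 1.87, 25.8 and 4.37, and CsaV3_2G012830 28.7, 11.1 and 2.01. Each was carried by 476 fragments or fewer in all. Among genes with fragments in 1 library alone, the largest count was that of CsaV3_4G032090, an aldo/keto reductase, with 182 fragments in HT0h_1 and 0 in the other libraries.

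HT0h_1 and HT0h_2 stood at opposite ends in broad lists. HT0h_1 was the highest library for 214 of 280 expressed ribosomal protein genes and for 16 of 17 expressed proteasome genes, beside 36.6% of all genes at 1 FPKM or more. HT0h_2 was the lowest for 221 and 14 of them, beside 35.9% of all genes. The median ribosomal gene was 0.29 higher on the log2 scale in HT0h_1 than in the mean of the others and 0.28 lower in HT0h_2 (log2 difference -0.28). In the antenna family HT0h_2 was highest in 17 of 20 genes and HT0h_1 lowest in 16. By gene length, HT0h_1 was higher than the mean of the others by a median of 0.11 on the log2 scale in genes of 601 to 1000 bp, and lower in genes over 3000 bp (-0.05) and in those of up to 300 bp (-0.04). HT0h_2 had medians of -0.08, 0.02 and 0.06 in these classes, so the order with length was not steady. The part of length in the differences was not tested.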

How the data were processed

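RNA-seq of unheated leaves was read from 3 deposited tables of FPKM, which the authors computed per library with the gene length, position, Pfam description and transcription factor family. The submitters' notes name CASAVA 1.8, HISAT2 2.0.5, StringTie 1.3.3b and featureCounts 1.5.0-p3 without roles, and the sources used here do not give RNA selection, strandedness or the counting of shared fragments. The 6 tables of heated leaves were not used. Fragments were recovered from FPKM times gene length (100% whole within 0.02 of a fragment), and the implied depth was between 0.951 and 0.978 of the fragments on genes. Counting noise and fragment recovery were tested on simulated data.

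Genes were ranked by mean FPKM and called expressed at 1 FPKM or more. Correlations used log2(FPKM + 1). Families followed the Pfam names, so a gene with several domains counts in each, and gene models were matched to RefSeq (Cucumber_9930_V3) by an overlap of at least 50%. Named were the 30 highest genes, the 3 highest of the 15 largest families, the highest gene of each list and of each transcription factor family of 10 or more genes, the 10 highest factor genes (transcription factor values of the column listed by hand), the 5 highest and all silent *CsWRKY* genes, the 15 widest ratios and the 5 highest models without a CsaV3 identifier. A metallothionein list had no match in the descriptions. Members and lists were chosen with earlier results of these data known. Python 3.11.15, numpy 2.4.6, pandas 2.3.3, scipy 1.17.1 and matplotlib 3.10.9 were used, and no test between groups was run.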

Additional observations from a re-analysis of the deposited data

How the results depend on the processing

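Of 37 alternatives to the 6 main values, 25 stayed within the limits set for them (1.5 times for counts, 1 SD between libraries for other values). Leaving out 1 library gave 16094 to 16180 expressed genes, 4605 to 4871 genes with 0 fragments, 27.8% to 28.5% of summed FPKM in the 100 highest genes and 8.23% to 8.996% in the antenna family. Pearson's r then lay between 0.989 and 0.990, and the genes over 2-fold apart numbered 705 to 793, against 1374 with 3 libraries, with the filter applied anew to the remaining 2. In fragments, the 100 genes then highest held 22.6% and the antenna family 6.93%. The mean r was 0.985 with a pseudocount of 0.1, 0.973 with 0.01 and 0.977 over genes at 1 FPKM or more. The genes over 2-fold apart were 273 at a mean of 10 FPKM or more, 3419 without a filter and with a pseudocount of 0.1, and 563 at a limit of 3-fold. No paired analysis was possible because 1 group only was described. The 3 libraries limit each SD to 2 degrees of freedom, and the 3-fragment floor covers counting error only.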
